A study of Mus musculus with 3 samples.

Results

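The 3 TGF-β ligand genes (*Tgfb1*, *Tgfb2* and *Tgfb3*) and the 4 genes of the latent TGF-β binding proteins (*Ltbp1*, *Ltbp2*, *Ltbp3* and *Ltbp4*) were followed across the cell types of the embryonic mouse soft palate. They were chosen by gene symbol, not by their values, and are 7 of the 32285 genes counted in the data. Each TGF-β is made as a precursor whose propeptide stays wrapped around the mature dimer and keeps it from its receptors. LTBP1, LTBP3 and LTBP4 can bind this latent complex covalently and tie it to fibrillin and fibronectin in the matrix, from which integrins and proteases release it, whereas LTBP2 binds fibrillin but not the latent ligand. Released ligand is bound by TGFBR2, which recruits TGFBR1 (also called ALK5), and in the palate TGF-β signaling is known for its part in epithelial fusion and in the growth and patterning of the mesenchyme.

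The study measured single cells of the soft palate, the muscular posterior part of the palate, at E14.5 by droplet 3′ sequencing. There were 2 control libraries (control 1 and control 2) and 1 mutant library of the genotype *Osr2-Cre;Alk5fl/fl*, all on a C57BL/6 background. According to the methods, controls carried 1 or both floxed *Tgfbr1* alleles, and *Osr2-Cre* recombines in the palatal mesenchyme and not in the muscle cells, while its reach in the other cell types is not given in the sources used here. No source says whether a library came from 1 embryo or from several, so the spread between libraries that the p-values rest on may be in part technical, and with a single mutant library genotype and library cannot be told apart. Levels below are counts per 1000000 (CPM): the unique molecular identifiers (UMIs, one per captured transcript molecule) of all cells of a type and library were added up and divided by their total. Values are always given in the order control 1, control 2, mutant. Intervals in parentheses are exact 95% Poisson intervals and cover counting error only.

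The 7 genes lie on 5 chromosomes (GRCm38, GENCODE vM21). *Tgfb1* (ENSMUSG00000002603) spans chr7:25687002-25705077 on the plus strand, and *Ltbp4* (ENSMUSG00000040488) lies on the same chromosome at chr7:27305136-27337692 on the minus strand. *Tgfb2* (ENSMUSG00000039239) spans chr1:186622792-186705989 on the minus strand. *Tgfb3* (ENSMUSG00000021253, chr12:86056745-86079041) and *Ltbp2* (ENSMUSG00000002020, chr12:84783212-84876532) are both on the minus strand of chromosome 12. *Ltbp1* (ENSMUSG00000001870) spans chr17:75005568-75392512 and *Ltbp3* (ENSMUSG00000024940) spans chr19:5740904-5758532, both on the plus strand. The libraries were read from transcript 3′ ends, so a UMI is assigned to one of these genes as a whole and does not tell its isoforms or start sites apart.

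The sequences before the start sites of *Tgfb1*, *Tgfb2* and *Ltbp1* are shown because *Tgfb1* and *Tgfb2* had opposite patterns over the cell types and *Ltbp1* followed *Tgfb2*. Each is the 250 bases before a RefSeq start (GRCm38.p6), written 5′ to 3′ on the gene's strand. Capitals mark matches on either strand to the GC box GGGCGG, the TATA box TATAAA, the E box CACGTG or the cAMP response element TGACGTCA.
Tgfb1, chr7:25686752-25687001, plus strand: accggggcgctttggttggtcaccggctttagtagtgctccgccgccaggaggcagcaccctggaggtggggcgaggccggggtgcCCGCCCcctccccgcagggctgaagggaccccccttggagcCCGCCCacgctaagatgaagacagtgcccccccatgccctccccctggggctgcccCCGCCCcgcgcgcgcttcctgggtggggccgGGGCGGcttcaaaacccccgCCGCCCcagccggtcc
Tgfb2, chr1:186705990-186706239, minus strand: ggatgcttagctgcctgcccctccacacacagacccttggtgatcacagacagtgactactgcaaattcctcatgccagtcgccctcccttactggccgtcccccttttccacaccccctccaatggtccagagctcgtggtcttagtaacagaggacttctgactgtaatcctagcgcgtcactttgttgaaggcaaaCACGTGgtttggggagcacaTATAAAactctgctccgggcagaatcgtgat
Ltbp1, chr17:75005279-75005528, plus strand: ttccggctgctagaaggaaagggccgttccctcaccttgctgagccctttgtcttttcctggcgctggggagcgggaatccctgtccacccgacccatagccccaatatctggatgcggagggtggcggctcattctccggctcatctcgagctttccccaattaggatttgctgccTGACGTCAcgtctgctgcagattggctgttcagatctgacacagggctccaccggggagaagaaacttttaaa

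The *Tgfb1* stretch was 75.2% G and C and held 5 GC boxes, 164, 123, 67, 36 and 16 bases before the start. The *Tgfb2* stretch was 53.6% G and C, with an E box 51 and a TATA box 31 bases before the start and no GC box. The *Ltbp1* stretch, 56.8% G and C, held a cAMP response element 73 bases before a start that no GENCODE transcript shares. A second *Ltbp1* start in the table, with the window chr17:75178531-75178780, had 50.8% G and C and no match, and no GENCODE transcript shares it either. Over the 32851 RefSeq promoters of the same length, 32.7% held the GC box, 12.4% the TATA box, 6.02% the E box and 1.55% the cAMP response element, and the median G and C content was 52.4%. The AP-1 site TGACTCA (4.46% of promoters) and the palindrome GTCTAGAC (0.167%) were also searched and matched none of the 6 members that the table holds, and *Tgfb3* had no entry in it. The stretches of the other members are not printed. *Ltbp3* followed *Tgfb2* somewhat more closely than *Ltbp1* did (Pearson r over types and libraries 0.85 against 0.80). Its stretch had no match, before a start that no GENCODE transcript shares. GC boxes also lay before starts of *Ltbp2* (2) and *Ltbp4* (3, 5 and 7 by start). A match is a description of the letters only.

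Cells were assigned to types by gates that use none of the 7 genes. A barcode went to the type with the largest fraction of its marker list detected, with UMIs of at least 3 of those markers. The fraction of any other type could be no more than 0.5 of that fraction. The libraries held 2816, 4067 and 8690 barcodes with 22624711, 27814907 and 63505144 UMIs, of which 2117, 3821 and 8111 barcodes passed the filters and 1381, 2151 and 4599 entered a gate. Barcodes over that limit, called barcodes with markers of several types here, made up 16.5%, 8.19% and 8.88% of those that passed and were left out, and 18.2%, 35.5% and 34.4% matched no gate. The libraries shared 18 to 49 barcodes by pairs, against 15.5 to 47.9 that random draws from the barcode list would give. In all, 5 types had at least 20 cells in each library and were tested. These were mesenchyme (982, 1590 and 3166 cells), epithelium (155, 203 and 290), endothelium (20, 85 and 245), myeloid cells (35, 104 and 158) and myogenic cells (75, 115 and 106). Each carried UMIs of all its own markers.

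The targeted gene *Tgfbr1* stood at 55.1, 59.7 and 53.0 CPM over all cells and at 58.1, 62.8 and 52.6 CPM in the mesenchyme. The mutant mesenchyme was thus the lowest of the 3 but by a margin close to the difference between the controls. The tags count transcript 3′ ends, and the sources used here do not place the floxed exons there, so this level does not check the label of the mutant library.

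*Tgfb1*, the ligand best known from immune and vascular cells, was a gene of myeloid and endothelial cells in this tissue. Its level in myeloid cells was 221 (179 to 270.2), 299.5 (260.1 to 343) and 190.4 (164 to 219.9) CPM, and in endothelium 247 (187 to 321), 219.7 (189 to 254) and 198 (178 to 219) CPM. Both types lay far above the rest in every library. In epithelium it was 36.2, 29.2 and 32.0 CPM, in mesenchyme 10.7, 7.17 and 10.4 CPM and in myogenic cells 5.84, 6.67 and 1.28 CPM, the last from 7, 7 and 1 UMIs. All values of these 3 types lay below every endothelial and myeloid value. Granulocytes were gated in control 1 alone, where 64 cells held 8 *Tgfb1* UMIs (59.8 CPM).

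Each type was compared with the mean of the other 4 on the log2 scale, by edgeR's quasi-likelihood test with Benjamini-Hochberg adjustment over all genes tested, as for all p-values here. Myeloid cells were higher by 3.55 ± 0.15 SE, edgeR adjusted p = 2.57e-15, which is 11.7-fold. Endothelium was higher by 3.04 ± 0.16 SE, edgeR adjusted p = 1.28e-13, or 8.25-fold. Mesenchyme (-2.70 ± 0.23 SE, edgeR adjusted p = 8.31e-10) and myogenic cells (-3.40 ± 0.31 SE, edgeR adjusted p = 4.02e-09) were lower, and epithelium did not pass (-0.49 ± 0.19 SE, edgeR adjusted p = 0.0508), though it passed as lower without the mutant library (adjusted p = 0.0292). Myeloid cells and endothelium, the neighbours at the top of the order, did not differ beyond their spread (0.40 ± 0.18 SE, edgeR adjusted p = 0.0909), nor did mesenchyme and myogenic cells at the bottom (0.57 ± 0.41 SE, edgeR adjusted p = 0.281). Endothelium lay above epithelium by 2.83 ± 0.20 SE, edgeR adjusted p = 4.87e-11, and epithelium above mesenchyme by 1.76 ± 0.20 SE, edgeR adjusted p = 1.39e-07. For pairs of types such as these, between 34.7% and 45.1% of the 10860 genes tested passed the same threshold of 0.05.

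Cells were thinned to 2000 UMIs each to compare how many carried a *Tgfb1* UMI at equal depth. This share was 31.2%, 37.1% and 38.3% of myeloid and 26.7%, 35.4% and 35.0% of endothelial cells, against 2.35%, 1.42% and 1.67% of mesenchymal and 0%, 1.77% and 0% of myogenic cells. Without thinning the shares were 74.3%, 69.2% and 62.7%, 75.0%, 69.4% and 64.5%, 9.47%, 5.03% and 7.61% and 8.0%, 5.22% and 0.943% in the same order of types. The shares of mesenchymal and myogenic cells were low in each library. Myeloid markers stood in the mesenchyme at a summed 50.6, 21.4 and 4.23 CPM and in epithelium at 43.0, 31.1 and 7.78 CPM, compared with 8215, 7393 and 7948 CPM in the myeloid cells themselves. Endothelial markers came to 35.1, 26.9 and 22.3 CPM in mesenchyme and 3555, 3576 and 4219 CPM in endothelium. The part of free RNA from these cells in the low *Tgfb1* levels elsewhere was not tested.

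*Tgfb2*, a ligand required in the mouse embryo for craniofacial and heart development, had a different map, with mesenchyme the highest tested type in each library. It stood at 57.1 (52.4 to 62.1), 109 (103 to 115) and 136 (132 to 141) CPM in mesenchyme and at 48.4 (36.7 to 62.5), 53.4 (40.3 to 69.3) and 68.1 (51.0 to 89.1) CPM in myogenic cells. Epithelium had 24.5, 78.2 and 44.9 CPM, endothelium 17.4, 27.6 and 33.6 CPM and myeloid cells 9.31, 7.24 and 10.3 CPM. Endothelial and myeloid levels lay below those of mesenchyme in each library. The levels differed between the controls: control 2 exceeded control 1 by 1.91-fold in mesenchyme, 3.19-fold in epithelium and 1.76-fold over all cells.

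Against the other types *Tgfb2* was higher in mesenchyme by 1.60 ± 0.15 SE, edgeR adjusted p = 7.17e-09, or 3.03-fold, and in myogenic cells by 1.14 ± 0.21 SE, edgeR adjusted p = 9.23e-05. It was lower in myeloid cells (-2.36 ± 0.33 SE, edgeR adjusted p = 2.33e-06). Endothelium also passed as lower (-0.68 ± 0.25 SE, edgeR adjusted p = 0.0371), but not without control 2 (adjusted p = 0.104), without the mutant library (adjusted p = 0.106) or in DESeq2 (adjusted p = 0.0641). Epithelium did not pass (0.30 ± 0.19 SE, edgeR adjusted p = 0.231), and its difference turned to -0.16 (adjusted p = 0.656) without control 2, while with unscaled UMI totals it passed as higher, at 0.52 (adjusted p = 0.0362). Mesenchyme and myogenic cells did not differ beyond their spread (0.37 ± 0.20 SE, edgeR adjusted p = 0.144), while myogenic cells lay above epithelium (edgeR adjusted p = 0.0181), epithelium above endothelium (adjusted p = 0.0207) and endothelium above myeloid cells (adjusted p = 0.0140).

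*Tgfb3*, the ligand whose loss causes cleft palate in mice through failed fusion of the palatal epithelia, was highest in epithelium. Its epithelial level was 43.0 (35.0 to 52.4), 135 (119 to 151) and 94.8 (82.3 to 109) CPM, so that the 3 libraries did not overlap in their counting intervals and control 2 held 3.13 times the level of control 1. Mesenchyme had 32.4, 32.7 and 39.1 CPM and myogenic cells 28.4, 20.01 and 11.6 CPM. Endothelium (0, 4 and 6 UMIs) and myeloid cells (2.33, 2.89 and 5.15 CPM) had next to none.

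Epithelium exceeded the other types in *Tgfb3* by 2.95 ± 0.25 SE, edgeR adjusted p = 1.36e-09, or 7.71-fold, and mesenchyme by 1.31 ± 0.27 SE, edgeR adjusted p = 0.000243. Endothelium (-2.87 ± 0.57 SE, edgeR adjusted p = 0.000329) and myeloid cells (-2.29 ± 0.61 SE, edgeR adjusted p = 0.00360) were lower, and myogenic cells did not pass (0.91 ± 0.38 SE, edgeR adjusted p = 0.0605), though they passed as higher without the mutant library (1.33, adjusted p = 0.0273). In the order of levels epithelium was above mesenchyme by 1.31 ± 0.23 SE, edgeR adjusted p = 5.19e-05, mesenchyme and myogenic cells did not differ (edgeR adjusted p = 0.447), and myogenic cells were above endothelium (adjusted p = 0.000305). Mural cells, which line small vessels, were too few to test, with 17, 0 and 13 *Tgfb3* UMIs from 12, 6 and 38 cells.

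**Figure D1:**
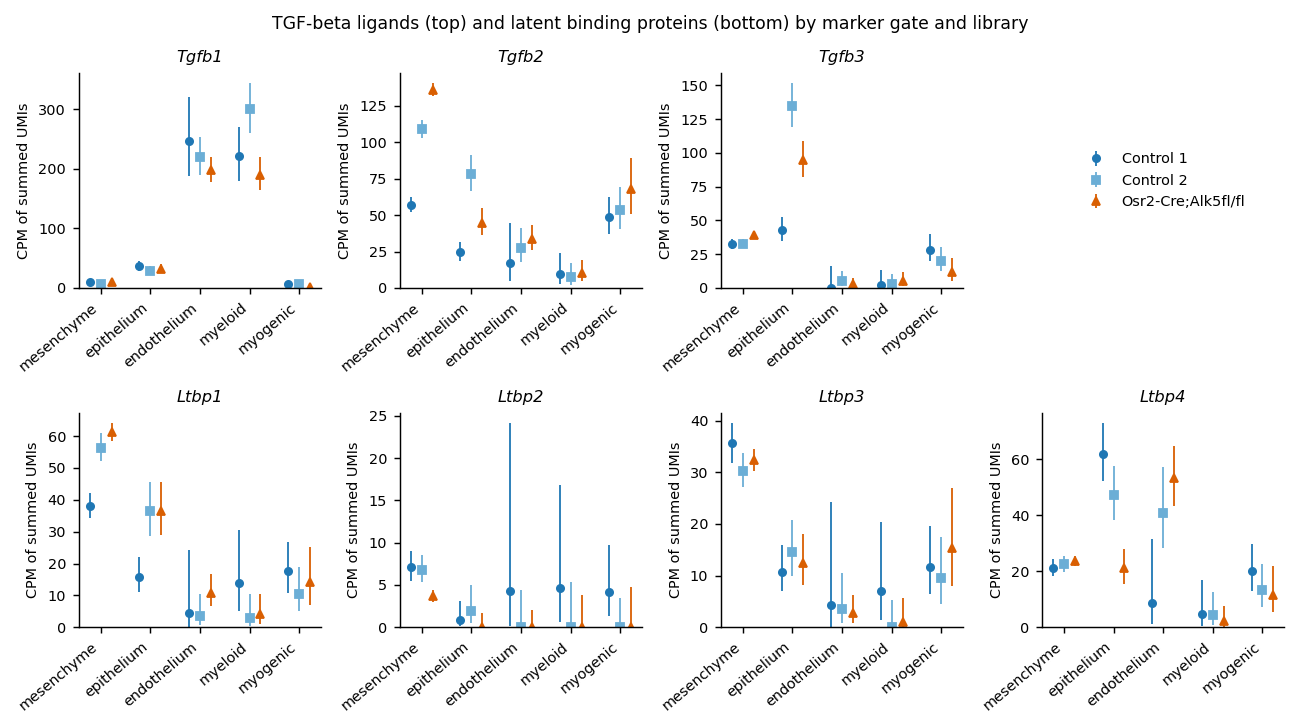
Levels of the 7 genes (CPM of summed UMIs, 1 panel a gene) in the 5 tested cell types, with 1 point a library and bars for the exact 95% Poisson interval. *Tgfb1* points are high in endothelium and myeloid cells, *Tgfb2* points in mesenchyme, and *Tgfb3* points in epithelium, where control 2 is the highest.

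The epithelial *Tgfb3* signal was concentrated in cells with a UMI of *Krt6a*, a keratin of the periderm, the flat outer layer that covers the embryonic palate. These cells made up 19.4%, 25.6% and 23.4% of the epithelial barcodes (30, 52 and 68 cells). They carried 57.0% (57 of 100), 81.2% (225 of 277) and 52.7% (109 of 207) of the epithelial *Tgfb3* UMIs. The *Tgfb3* level was 112 (85.1 to 146), 363 (317 to 413) and 194 (159 to 234) CPM in *Krt6a*-positive and 23.7 (17.1 to 31.9), 36.2 (27.0 to 47.4) and 60.4 (49.0 to 73.6) CPM in *Krt6a*-negative epithelium, with every positive value above every negative one. The difference was 2.44 ± 0.23 SE, edgeR adjusted p = 4.18e-06, or 5.44-fold, and it lay between 1.94 and 2.91 over the alternatives tried.

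Of the 6 members tested in this comparison, 4 were higher in the *Krt6a*-positive cells, where 11.5% of all genes tested (7.39% higher and 4.10% lower) passed. *Tgfb1* was 57.2, 67.7 and 64.2 CPM in positive and 30.3, 12.5 and 20.9 CPM in negative cells, a difference of 1.60 ± 0.26 SE, edgeR adjusted p = 0.000700. Beside it, myeloid markers summed to 49.3, 69.3 and 8.91 CPM in positive and 41.3, 14.6 and 7.39 CPM in negative cells. *Ltbp1* was 39.4, 69.3 and 51.7 against 9.36, 22.3 and 31.4 CPM (1.39 ± 0.26 SE, edgeR adjusted p = 0.00246), a call that did not hold without control 2 (adjusted p = 0.0784). *Tgfb2* was 51.2, 87.0 and 107 against 17.1, 74.4 and 23.4 CPM (1.20 ± 0.29 SE, edgeR adjusted p = 0.0138), with overlapping groups and a call that did not hold without the mutant library (adjusted p = 0.0591). In each library the *Tgfb2* level of the positive cells lay above that of myogenic cells (48.4, 53.4 and 68.1 CPM).

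The remaining binding proteins did not follow. *Ltbp4* was 78.8, 41.9 and 16.04 CPM in positive and 57.3, 49.4 and 22.8 CPM in negative cells (0.05 ± 0.23 SE, edgeR adjusted p = 0.914). *Ltbp3* was 9.85, 4.84 and 5.35 against 11.02, 18.8 and 14.8 CPM (-1.15 ± 0.45 SE, edgeR adjusted p = 0.121), and passed as lower only without control 1 (-1.68, adjusted p = 0.0181). Selecting cells by a UMI also selects for depth: the median was 12542, 9151.5 and 7077 UMIs in positive and 12056, 7613 and 6077.5 in negative cells. At 2000 UMIs a cell, 20.7%, 46.2% and 27.9% of positive and 4.10%, 5.96% and 11.1% of negative cells had a *Tgfb3* UMI, compared with 36.7%, 84.6% and 61.8% and 20%, 18.5% and 26.1% unthinned. At the same thinned depth the share was 6.94%, 7.01% and 6.63% of mesenchymal and 0%, 0% and 0.649% of myeloid cells. *Krt6a*-negative epithelium thus lay below mesenchyme in both controls and above it in the mutant library. The epithelium as a whole, at 5.30%, 17.7% and 15.8%, lay below mesenchyme in control 1 and above it in the other libraries.

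**Figure D2:**
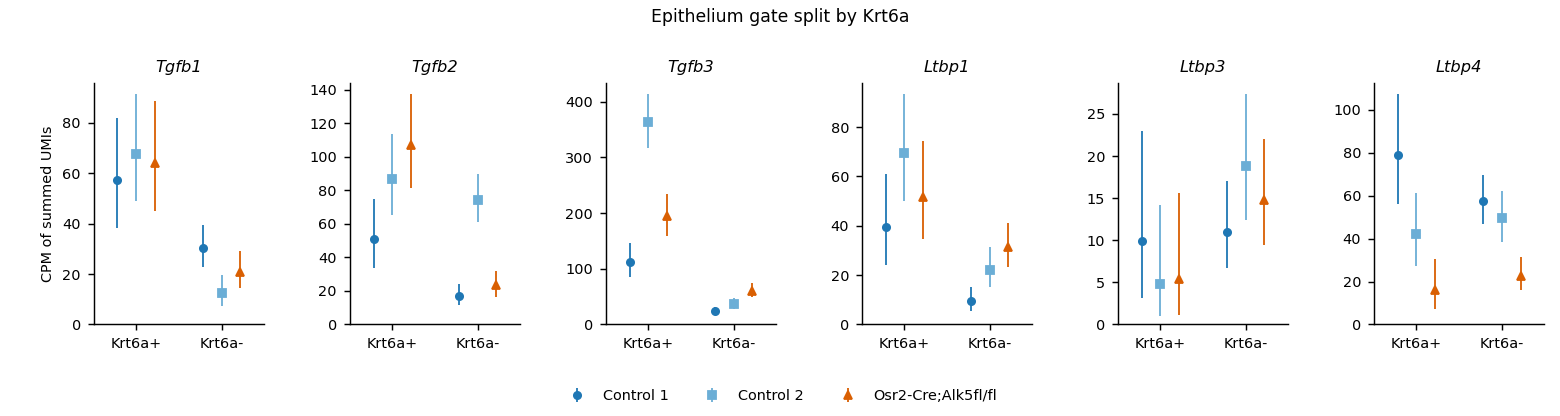
Levels (CPM of summed UMIs) of 6 members in *Krt6a*-positive and *Krt6a*-negative epithelium, with 1 point a library and bars for the exact 95% Poisson interval. For *Tgfb3* the positive cells lie at 112, 363 and 194 CPM and the negative cells at 23.7, 36.2 and 60.4 CPM, while *Ltbp4* overlaps between both.

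Among the binding proteins, *Ltbp1* and *Ltbp3* were genes of the mesenchyme. *Ltbp1*, which is the classical matrix carrier of latent TGF-β, stood at 38.1 (34.3 to 42.3), 56.3 (52.1 to 60.9) and 61.2 (58.4 to 64.2) CPM in mesenchyme and 15.9, 36.4 and 36.6 CPM in epithelium. In myogenic cells it was 17.5, 10.5 and 14.1 CPM, in endothelium 4.34, 3.60 and 10.8 CPM and in myeloid cells 14.0, 2.89 and 4.12 CPM. Mesenchyme was the highest type in each library. *Krt6a*-positive epithelium alone, at 39.4, 69.3 and 51.7 CPM from 20, 43 and 29 UMIs, was above mesenchyme in both controls and below it in the mutant library. Mesenchyme exceeded the other types by 1.96 ± 0.20 SE, edgeR adjusted p = 1.88e-08, and lay above epithelium, its neighbour in the order, by 0.82 ± 0.22 SE, edgeR adjusted p = 0.00372. The higher call in epithelium (0.93 ± 0.24 SE, edgeR adjusted p = 0.00438) and the lower calls in endothelium (-1.47 ± 0.39 SE, edgeR adjusted p = 0.00500) and myeloid cells (-1.60 ± 0.46 SE, edgeR adjusted p = 0.00687) did not hold without control 2, where the adjusted p was 0.180, 0.0506 and 0.0592. The myeloid call was also lost without the mutant library (adjusted p = 0.237).

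*Ltbp3*, a binding protein with known roles in bone and tooth, had a narrow range in mesenchyme, at 35.6 (31.9 to 39.6), 30.4 (27.2 to 33.7) and 32.4 (30.3 to 34.6) CPM. Epithelium had 10.8, 14.6 and 12.4 CPM, myogenic cells 11.7, 9.53 and 15.4 CPM, endothelium 4.34, 3.60 and 2.71 CPM and myeloid cells 6.98, 0 and 1.03 CPM. No other type reached the mesenchymal level in any library. Mesenchyme exceeded the other types by 2.35 ± 0.21 SE, edgeR adjusted p = 1.95e-09, or 5.11-fold, and its neighbour, epithelium, by 1.38 ± 0.22 SE, edgeR adjusted p = 1.64e-05. Myogenic cells passed as higher than the mean of the others (1.03 ± 0.35 SE, edgeR adjusted p = 0.0218) but not without control 2 (adjusted p = 0.0680) or without the mutant library (adjusted p = 0.254). The lower calls in endothelium (-1.75 ± 0.49 SE, edgeR adjusted p = 0.00803) and in myeloid cells (-2.26 ± 0.59 SE, edgeR adjusted p = 0.00294) were likewise lost without the mutant library (adjusted p = 0.138 and 0.0581), the former also without control 1 (adjusted p = 0.119) and the latter without control 2 (adjusted p = 0.0541).

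*Ltbp4*, the member known for elastic fiber assembly, differed from the others in having epithelium and endothelium at the top by mean log2 level. Both lay above the other types in control 2 alone. In control 1 endothelium lay below mesenchyme and myogenic cells, and in the mutant library epithelium lay below mesenchyme. Epithelium had 62.0 (52.3 to 73.0), 47.1 (38.2 to 57.5) and 21.1 (15.4 to 28.1) CPM and endothelium 8.68 (1.05 to 31.4), 40.8 (28.3 to 57.0) and 53.2 (43.2 to 64.8) CPM, the first endothelial value resting on 2 UMIs. Mesenchyme had 21.2, 22.4 and 23.6 CPM, myogenic cells 20.02, 13.3 and 11.6 CPM and myeloid cells 4.65, 4.34 and 2.06 CPM. The mesenchymal level was nearly equal in the 3 libraries. Endothelium exceeded the other types by 1.48 ± 0.31 SE, edgeR adjusted p = 0.000661, but not without the mutant library (0.79, adjusted p = 0.143), and epithelium exceeded them by 1.27 ± 0.27 SE, edgeR adjusted p = 0.000630. These neighbours did not differ beyond their spread (epithelium minus endothelium -0.17 ± 0.31 SE, edgeR adjusted p = 0.728). Myeloid cells were lower (-2.80 ± 0.58 SE, edgeR adjusted p = 0.000344), and mesenchyme and myogenic cells did not pass (adjusted p = 0.716 and 0.902).

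*Ltbp2* was rare. It reached 7.10 (5.50 to 9.01), 6.82 (5.39 to 8.52) and 3.65 (2.98 to 4.44) CPM in mesenchyme, from 67, 78 and 102 UMIs, and 0 to 5 UMIs in any other tested type and library. It fell under the filter on low counts of the comparison of types and was not tested there. Without that filter it passed as higher in mesenchyme (2.59 ± 0.43 SE, edgeR adjusted p = 2.73e-08).

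Over the 6 tested members, mesenchyme had 4 higher and 1 lower, where 51.7% of all genes tested (27.9% higher and 23.9% lower) were called, and a median log2 difference of 1.45, against 0.01 over all genes tested. Endothelium had 2 higher (*Tgfb1* and *Ltbp4*) and 4 lower, beside 32.1% of all genes tested (17.9% higher and 14.3% lower), with a median of -1.08, against -0.04 over all genes tested. In myeloid cells 1 was higher (*Tgfb1*) and 5 were lower, beside 45.1% of all genes tested (24.0% higher and 21.1% lower) and with a median of -2.27, against -0.07 over all genes tested. Epithelium had 3 higher (*Tgfb3*, *Ltbp1* and *Ltbp4*), beside 35.9% of all genes tested (20.3% higher and 15.6% lower) and with a median of 0.78, against 0.01 over all genes tested, and myogenic cells 2 higher (*Tgfb2* and *Ltbp3*) and 1 lower, beside 39.3% of all genes tested (21.2% higher and 18.1% lower) and with a median of 0.55, against -0.05 over all genes tested. The types differed in much of the transcriptome, so these shares are large, and the gates of a library share its depth and free RNA.

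Levels per type do not say where most transcripts of a ligand lay, which also depends on the number and size of the cells. Of the 500, 708 and 1305 *Tgfb1* UMIs in the 3 libraries, endothelium and myeloid cells together held 30.4% (26.4 to 34.6), 55.1% (51.3 to 58.8) and 42.1% (39.4 to 44.9), with exact Clopper-Pearson intervals, from 2.60%, 4.95% and 4.97% of the cells. Mesenchyme, at a low level per cell but with many cells, held 20.2%, 11.6% and 22.2%. Of the 1214, 2657 and 7197 *Tgfb2* UMIs, mesenchyme held 44.4%, 46.9% and 52.8% with 46.4%, 41.6% and 39.0% of the cells. Of the 779, 1053 and 2476 *Tgfb3* UMIs, mesenchyme held 39.3%, 35.5% and 44.0% and epithelium 12.8%, 26.3% and 8.36%, the latter from 7.32%, 5.31% and 3.58% of the cells. By these gates more *Tgfb3* UMIs lay in mesenchyme than in epithelium in each library, although the level was highest in epithelium. Barcodes with markers of several types held 14.1% to 32.4% of the UMIs of a member, and ungated barcodes 3.80% to 28.2%. When 1 marker more was required for a gate, the mesenchymal share was 33.5%, 31.7% and 43.5% for *Tgfb2* and 32.9%, 22.8% and 36.1% for *Tgfb3*. The epithelial share of *Tgfb3* was then 12.5%, 25.9% and 7.39%, so that in control 2 the order of both types turned.

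**Figure D3:**
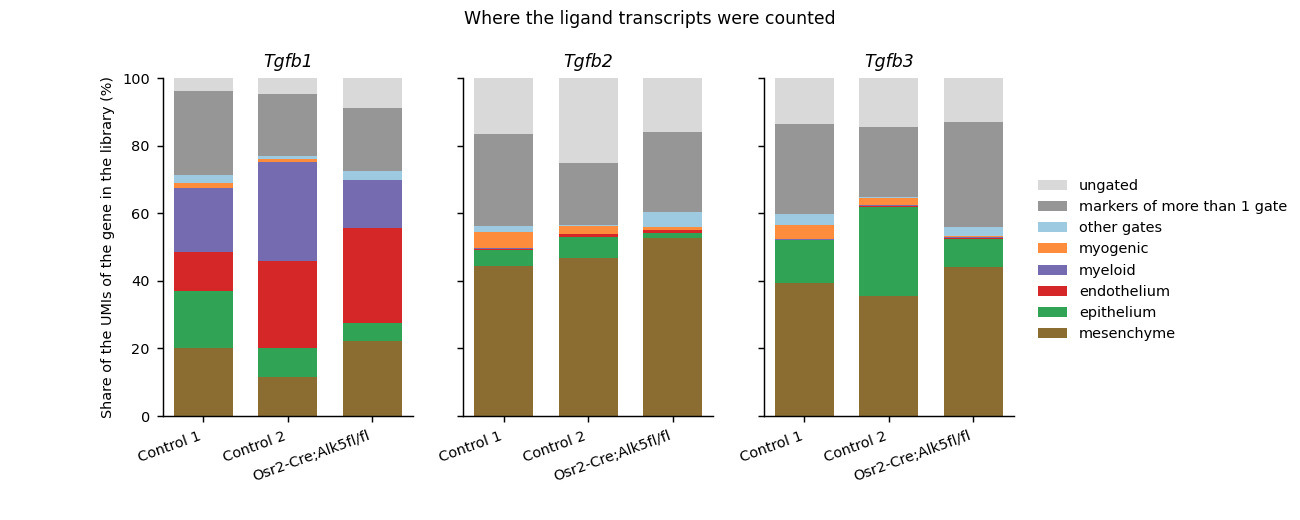
Share of each ligand's UMIs (percent of all its UMIs in a library, stacked bars from 0) that lay in each cell type, in barcodes with markers of several types and in ungated barcodes, for each library. Endothelium and myeloid cells hold 30.4%, 55.1% and 42.1% of *Tgfb1*, and mesenchyme holds 44.4%, 46.9% and 52.8% of *Tgfb2*.

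Within the mesenchyme, cells were further split by markers of the perimysial, osteogenic, midline, tendon and dividing subsets, which can overlap, and each was compared with the remaining mesenchyme of the same libraries. Asking for 2 markers also selects for depth. The median was 9548, 9199 and 12592.5 UMIs in perimysial cells and 7847, 5398 and 5958 in their rest. It was 13063, 9754 and 15527 in tendon-marked cells and 8126, 5745 and 6263 in their rest. The part of depth in the differences was not tested. Perimysial cells, the fibroblasts that surround the developing muscle, expressed more *Tgfb2*: 70.6, 135 and 182 CPM against 48.7, 96.5 and 109 CPM in the rest, higher within each library. The difference was 0.49 ± 0.09 SE, edgeR adjusted p = 0.000542, or 1.40-fold. In all, 4 of 7 members were higher in perimysial cells, beside 13.5% of all genes tested (7.06% higher and 6.39% lower), with a median log2 difference of 0.41, against 0.02 over all genes tested. *Ltbp3* was 38.7, 42.7 and 43.4 CPM against 33.6, 24.5 and 25.9 CPM (0.49 ± 0.12 SE, edgeR adjusted p = 0.00656), *Ltbp1* 48.4, 63.5 and 80.2 CPM against 31.7, 53.0 and 50.0 CPM (0.41 ± 0.10 SE, edgeR adjusted p = 0.00800) and *Ltbp4* 24.4, 28.8 and 29.7 CPM against 19.2, 19.4 and 20.02 CPM (0.39 ± 0.12 SE, edgeR adjusted p = 0.0334). All 3 were higher within each library, but in DESeq2 none of them passed (DESeq2 adjusted p = 0.0754, 0.0737 and 0.238). *Ltbp3* was also lost without control 2 (adjusted p = 0.105), *Ltbp1* without the mutant library (adjusted p = 0.0811), and *Ltbp4* without either (adjusted p = 0.202 and 0.164). *Ltbp2* (0.71 ± 0.24 SE, edgeR adjusted p = 0.0538), *Tgfb3* (0.32 ± 0.11 SE, edgeR adjusted p = 0.0643) and *Tgfb1* (-0.54 ± 0.20 SE, edgeR adjusted p = 0.0745) did not pass. *Ltbp2* passed as higher without the mutant library (1.23, adjusted p = 0.000133). Its level was 11.6, 11.2 and 3.66 CPM in perimysial cells and 4.29, 4.76 and 3.65 CPM in the rest, so that the mutant library was the lowest of the perimysial values. *Tgfb1* passed as lower without control 1 (adjusted p = 0.00335) or without control 2 (adjusted p = 0.0458), but without the mutant library its difference was 0.01 (adjusted p = 0.985), with the sign turned.

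Osteogenic cells, which carry early bone markers, had a different ligand profile. *Tgfb2* was 29.7, 68.9 and 113 CPM against 64.4, 113 and 146 CPM in the rest, lower within each library (-0.59 ± 0.12 SE, edgeR adjusted p = 0.00137). *Tgfb1*, at 13.1, 18.8 and 20.5 CPM against 10.1, 6.11 and 5.82 CPM, was higher (1.43 ± 0.22 SE, edgeR adjusted p = 2.17e-05), though not without the mutant library (0.97, adjusted p = 0.0628). Each osteogenic value lay below every endothelial and myeloid one. Myeloid markers summed to 46.3, 18.8 and 5.66 CPM in osteogenic cells and 51.8, 21.7 and 3.59 CPM in the rest, and endothelial markers to 33.2, 24.0 and 25.0 and 35.5, 27.2 and 21.0 CPM. *Ltbp1* (-0.47 ± 0.14 SE, edgeR adjusted p = 0.0247) and *Ltbp2* (-1.06 ± 0.35 SE, edgeR adjusted p = 0.0461) were lower. The first did not hold without control 2 (adjusted p = 0.267), and the second neither without control 1 (adjusted p = 0.380) nor without the mutant library (adjusted p = 0.0571). The 4 of 7 members called compare with 10.6% of all genes tested (6.53% higher and 4.06% lower).

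In the other subsets every call was lost when 1 library or another was left out. In midline cells 1 of 7 members was called, beside 5.18% of all genes tested (2.66% higher and 2.52% lower): *Tgfb1* was lower (-0.63 ± 0.17 SE, edgeR adjusted p = 0.0158), but not without the mutant library (adjusted p = 0.608). In tendon-marked cells 4 of 7 were higher, beside 8.55% of all genes tested (3.76% higher and 4.79% lower): *Tgfb2* by 0.38 ± 0.10 SE, edgeR adjusted p = 0.0170, *Ltbp1* by 0.45, *Ltbp3* by 0.45 and *Ltbp4* by 0.48 (adjusted p = 0.0109, 0.0261 and 0.0440). None of these 4 passed without control 2 or without the mutant library. They are the 4 members called in perimysial cells, where the differences were of similar size (0.49, 0.41, 0.49 and 0.39 in the same order). In dividing cells *Tgfb2* was lower (-0.20 ± 0.07 SE, edgeR adjusted p = 0.0356), the only member of 7 called beside 21.6% of all genes tested (11.1% higher and 10.4% lower), and not without control 2 (adjusted p = 0.576).

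**Figure D4:**
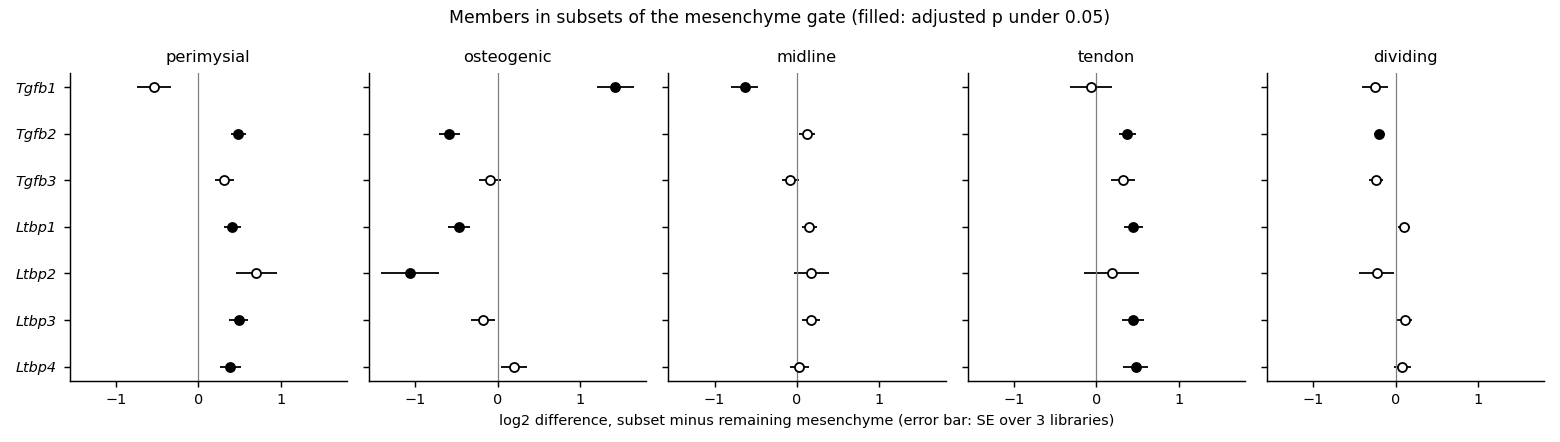
Log2 difference of each member between a mesenchymal subset and the remaining mesenchyme (points, with bars for 1 SE of the edgeR fit over 3 libraries), filled where the adjusted p was under 0.05. Perimysial *Tgfb2* (0.49) and osteogenic *Tgfb1* (1.43) are to the right of 0, and osteogenic *Tgfb2* (-0.59) is to the left.

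The proteins that store, present and activate latent TGF-β were taken as a list of 20 genes, of which 18 passed the filter in the comparison of types, and the receptors as a list of 5. In myeloid cells, which with endothelium had the most *Tgfb1*, 3 of the 18 were higher and 7 lower, beside 24.0% higher and 21.1% lower of all genes. *Nrros*, which displays latent TGF-β1 on the surface of myeloid cells, was 114, 172 and 128 CPM there and 2.12, 1.05 and 0.932 CPM in mesenchyme, higher than in the other types by 6.01 ± 0.23 SE, edgeR adjusted p = 2.03e-16. *Thbs1*, whose product can activate the latent complex, was higher (3.45 ± 0.32 SE, edgeR adjusted p = 3.93e-09), while the membrane protease gene *Mmp14* (-2.92 ± 0.31 SE, edgeR adjusted p = 2.68e-08) and *Fbn1*, the fibrillin to which LTBPs attach (-2.70 ± 0.37 SE, edgeR adjusted p = 1.78e-06), were lower. Of the receptors, *Acvrl1* (1.67), *Tgfbr1* (1.27) and *Tgfbr2* (1.21) were higher and *Tgfbr3* (-1.66) lower in log2.

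In endothelium 7 of the 18 were higher and 5 lower, beside 17.9% higher and 14.3% lower of all genes, and all 5 receptors were called. The endothelial receptors *Eng* (156, 189.7 and 245 CPM, 5.61 ± 0.20 SE, edgeR adjusted p = 9.71e-17) and *Acvrl1* (43.4, 42.0 and 49.4 CPM, 4.16 ± 0.32 SE, edgeR adjusted p = 1.45e-10) were far above the other types. *Tgfbr2* (2.18) and *Tgfbr3* (1.57) were higher and *Tgfbr1* (-0.63) lower. *Nrros* was higher by 2.95, and the integrin gene *Itgb5* (-2.72) and *Thbs1* (-2.24) were lower. *Itgb8*, which codes for the chain of an integrin that activates latent TGF-β, had no UMI in endothelium, against 10.3, 24.8 and 22.9 CPM in epithelium. In endothelium 3 UMIs would be 3.60 CPM in control 2 and 1.63 CPM in the mutant library. In control 1 a single UMI would be 4.34 CPM, so that 3 UMIs would lie above the epithelial 10.3 CPM. Its absence there does not set these types apart.

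In epithelium, the type with the most *Tgfb3*, 8 of the 18 were higher and 4 lower, beside 20.3% higher and 15.6% lower of all genes. The activating integrin chains *Itgb8* (4.27 ± 0.54 SE, edgeR adjusted p = 1.63e-06) and *Itgb6*, at 3.44, 10.2 and 4.58 CPM (3.73 ± 0.75 SE, edgeR adjusted p = 0.000458), were higher, as was *Lrrc32*, which codes for GARP, a protein that presents latent TGF-β on the cell surface. *Lrrc32* stood at 14.2, 43.7 and 65.0 CPM (3.68 ± 0.40 SE, edgeR adjusted p = 8.03e-08). *Emilin1*, a matrix protein that restrains the processing of pro-TGF-β1, was lower (-2.50), and of the receptors *Eng* (-2.49) and *Acvrl1* (-1.97) were lower and none was higher. In *Krt6a*-positive epithelium 8 of 15 tested genes of the list were higher and 2 lower than in negative epithelium, beside 7.39% higher and 4.10% lower of all genes. *Lrrc32* was 25.6, 116 and 143 CPM against 11.02, 12.5 and 38.2 CPM (2.20 ± 0.26 SE, edgeR adjusted p = 4.26e-05). *Furin*, the protease that cleaves the TGF-β precursor, was 126, 240.1 and 166 CPM against 39.7, 53.6 and 43.7 CPM (1.96 ± 0.15 SE, edgeR adjusted p = 6.66e-07). *Itgb8* (1.55) and the receptor *Tgfbr2* (1.36) were also higher, and the proteoglycan gene *Dcn* was lower (-1.22).

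In mesenchyme, with the most *Tgfb2*, *Ltbp1* and *Ltbp3*, 13 of the 18 genes were higher and 2 lower, beside 27.9% higher and 23.9% lower of all genes. *Fbn2*, the fibrillin of embryonic tissue, was 311, 499 and 352 CPM (2.75 ± 0.15 SE, edgeR adjusted p = 7.84e-13), *Bgn*, a TGF-β-binding proteoglycan, was higher by 2.35, and *Itgb8*, at 11.4, 9.45 and 5.84 CPM, by 2.83. In control 2 and the mutant library *Itgb8* was lower in mesenchyme than in epithelium. *Nrros* was lower (-2.89). Of the receptors only *Tgfbr3*, a co-receptor that binds TGF-β2, was called, as higher (1.58 ± 0.25 SE, edgeR adjusted p = 1.29e-05). In myogenic cells, also high in *Tgfb2*, 1 of the 18 was higher (*Itgb6*, 5.02, at 10.8, 8.58 and 7.71 CPM) and 11 were lower, led by *Thbs1* (-3.99), *Nrros* (-3.63) and *Itgb5* (-2.00). The sizes for *Itgb6* and *Itgb8*, also in epithelium, depend on types with few or no UMIs. The SE was 588 for the mesenchymal difference of *Itgb6* and 75.1 for the myeloid difference of *Itgb8*. In myogenic cells 4 of 5 receptors were lower, beside 21.2% higher and 18.1% lower of all genes. *Tgfbr2*, which every TGF-β response needs, stood at 0.834, 5.72 and 3.85 CPM in myogenic cells and 24.8, 37.8 and 32.5 CPM in mesenchyme (-3.46 ± 0.33 SE, edgeR adjusted p = 8.49e-09), *Eng* (-2.69) and *Tgfbr3* (-1.64) were lower, and *Acvrl1* had 1, 0 and 0 UMIs. In the subsets the filter also left 18 genes of the list, with *Itgb3* and *Fmod* in place of *Itgb6* and *Nrros*. In perimysial cells 7 of these 18 were higher than in the remaining mesenchyme and none lower, beside 7.06% higher and 6.39% lower of all genes. These were led by *Fn1* (0.66), *Fbn1* (0.62), *Thbs1* (0.53) and *Mmp2* (0.39), and among the receptors *Tgfbr2* (0.65) and *Tgfbr3* (0.60) were higher. In osteogenic cells 1 of the 18 was higher (*Itgb5*, 0.47) and 3 were lower (*Dcn*, -0.76, *Fbn2*, -0.48, and *Fn1*, -0.37), with no receptor called, beside 6.53% higher and 4.06% lower of all genes. Of the list, 6 were higher in tendon-marked cells (beside 3.76% higher and 4.79% lower of all genes) and 2 in midline cells (beside 2.66% higher and 2.52% lower of all genes), with none lower. Several were those of perimysial cells: *Fn1* (0.63), *Thbs1* (0.71) and *Mmp2* (0.58) in tendon-marked and *Fn1* (0.44) in midline cells. *Tgfbr3* was also higher in midline cells (0.48), while *Fbn1* and *Tgfbr2* were called in neither of these subsets. In dividing cells 1 of the list was higher and 1 lower, beside 11.1% higher and 10.4% lower of all genes. For the genes of these 2 lists the fits without 1 library and in DESeq2 are not given. Of all genes, 1081 were called in tendon-marked cells, against 32 without the mutant library and 88 in DESeq2. In perimysial cells 1699 were called, against 459 in DESeq2.

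The mutant library was set beside the 2 controls within each type, with no test. The libraries also differed in the cells they held. The gates took 13, 11 and 320 neurons, 8, 7 and 170 cartilage cells, 137, 72 and 577 osteogenic cells and 64, 0 and 0 granulocytes. Whether the dissected tissue differed between the libraries, and its part in the ratios, was not tested. A member is described as past the fold where the mutant lay on 1 side of both controls, by at least 0.5 on the log2 scale from their mean and by more than the log2 gap between them, among genes with at least 10 UMIs in the mutant or in both controls. With 1 control left out there is no gap, and only the limit of 0.5 remains. In mesenchyme, the target of the Cre, 1 of 7 members was past the fold, beside 15.4% of all genes counted (5.33% higher and 10.0% lower). This was *Ltbp2*, at 7.10, 6.82 and 3.65 CPM, with a log2 ratio of -0.93 and a gap of 0.06. *Tgfb2* was highest in the mutant, but its ratio of 0.79 was within the gap of 0.93, and *Ltbp1* (0.40, gap 0.56) and *Tgfb3* (0.26, gap 0.01) were also under the limits. With TMM scaling factors computed within the type, *Tgfb2* and *Ltbp1* were past the fold as well, at 0.90 and 0.52.

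In perimysial cells *Ltbp2* was 11.6, 11.2 and 3.66 CPM, from 42, 41 and 38 UMIs, a ratio of -1.64 with a gap of 0.05. Its intervals were 11.6 (8.38 to 15.7), 11.2 (8.06 to 15.2) and 3.66 (2.59 to 5.03) CPM, and that of the mutant did not overlap those of the controls. *Ltbp1* was past the fold in the other direction (0.53, gap 0.39), which makes 2 of 7 members beside 16.2% of all genes counted (7.81% higher and 8.40% lower), though *Ltbp1* was not past it without control 1 or when the 5% of barcodes with the most UMIs were left out. In osteogenic cells 3 of 7 were higher, beside 16.2% of all genes counted (8.80% higher and 7.44% lower): *Tgfb2* (1.32, gap 1.21), *Ltbp1* (1.02, gap 0.26) and *Ltbp4* (0.53, gap 0.42). Of these *Ltbp1* alone was past the fold without the 5% of barcodes with the most UMIs, and *Ltbp4* was not past it without control 1. Control 2 had only 72 osteogenic cells.

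In epithelium, which is not named as a target of the Cre, *Ltbp4* was the 1 of 6 counted members past the fold, beside 21.4% of all genes counted (3.19% higher and 18.2% lower), at 62.0 (52.3 to 73.0), 47.1 (38.2 to 57.5) and 21.1 (15.4 to 28.1) CPM with a ratio of -1.36 and a gap of 0.40. It was lower in *Krt6a*-positive and in *Krt6a*-negative cells. In *Krt6a*-positive cells it was 78.8, 41.9 and 16.04 CPM, from 40, 26 and 9 UMIs (-1.84, gap 0.91). It was 1 of 5 counted members there, beside 25.6% of all genes counted (7.20% higher and 18.4% lower). In *Krt6a*-negative cells it was 57.3, 49.4 and 22.8 CPM (-1.22, gap 0.21) and *Tgfb3*, at 23.7, 36.2 and 60.4 CPM, was higher (1.04, gap 0.61), 2 of 6 beside 21.5% of all genes counted (4.00% higher and 17.5% lower). In the *Krt6a*-positive cells, which held most of the epithelial *Tgfb3* UMIs, the mutant *Tgfb3* level of 194 CPM lay between those of the controls.

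Of the types outside the mesenchyme and epithelium, myogenic cells had 2 of 5 counted members past the fold, beside 24.3% of all genes counted (6.55% higher and 17.8% lower). *Tgfb3* was lower, at 28.4, 20.01 and 11.6 CPM (-1.04, gap 0.50), and *Ltbp3* higher, at 11.7, 9.53 and 15.4 CPM (0.55, gap 0.29), the latter not without control 2. Both rest on few cells: *Tgfb3* had a UMI in 22, 19 and 8 myogenic cells and *Ltbp3* in 12, 10 and 11. Neither was tested against counting error. Endothelium had 1 of 4, *Ltbp1*, beside 18.3% of all genes counted (7.07% higher and 11.2% lower). *Ltbp1* rested on 1, 3 and 20 UMIs. With *Tgfb2* and *Ltbp4* it met the limit of 10 UMIs only through the mutant library, since control 1 fell short of it. The endothelial sums were 230398, 832810 and 1843739 UMIs, so that a higher *Ltbp1* was more readily counted than a lower one. Neuronal markers in the endothelial gate summed to 17.4, 26.4 and 279 CPM, whose part in the result was not tested. *Ltbp1* was not past the fold when 1 marker more was required for a gate. Myeloid cells had 0 of 2, beside 19.1% of all genes counted (8.16% higher and 11.0% lower). Their *Tgfb1* level, 221, 299.5 and 190.4 CPM, was lowest in the mutant (-0.43, gap 0.44) and was past the fold without the 5% of barcodes with the most UMIs. Without control 1 it passed the limit on the ratio, but no gap between controls was left there to set beside it.

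**Figure D5:**
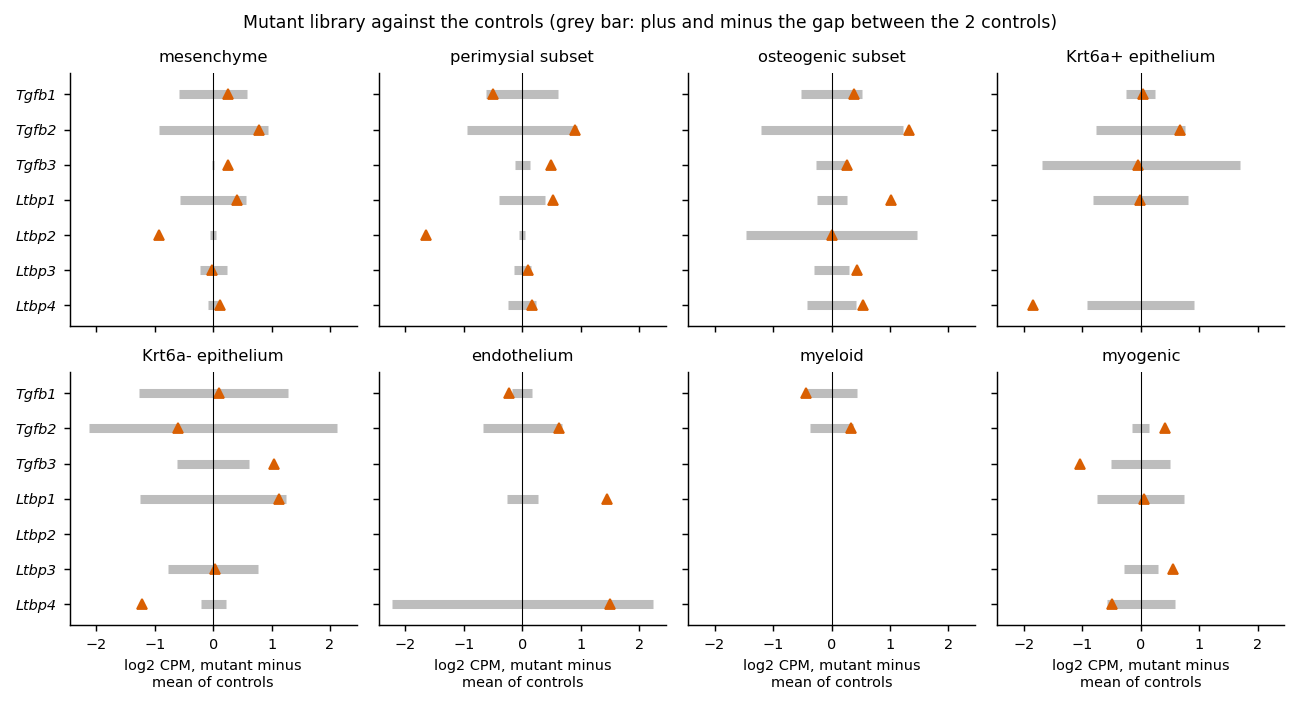
Log2 ratio of the mutant library to the mean of the 2 controls for each member with enough UMIs (triangles), in 8 cell types or subsets, with grey bars for the log2 gap between the controls on either side of 0. *Ltbp2* in mesenchyme (-0.93) and in perimysial cells (-1.64) and *Ltbp4* in *Krt6a*-positive (-1.84) and *Krt6a*-negative (-1.22) epithelium lie below their grey bars.

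The members were last compared with each other and with the genes most like them over the 15 sums of 5 types in 3 libraries, which share libraries and depth, so that the correlations only describe. On log2(CPM + 1), *Tgfb1* and *Tgfb2* ran opposite to each other (Pearson r = -0.81). *Ltbp1* and *Ltbp3* ran together (r = 0.89), and *Tgfb2* ran with *Ltbp3* (0.85) and *Ltbp1* (0.80). Of 9238 genes compared, those most like *Tgfb1* were *Smagp* (r = 0.98), *Apobec3* (0.97) and *Pitpna* (0.97). For *Tgfb2* they were *Ube3a* (0.96), *Tcf12* (0.96) and *Peg3* (0.95), and for *Tgfb3* *Krt10* (0.96), *Fras1* (0.95) and *Tpbg* (0.94). Among the binding proteins, *Ltbp1* was closest to *Pde3a* (0.95) and *Epm2aip1* (0.94), *Ltbp3* to *Tpd52l1* (0.94), *Ltbp4* to *Tfb2m* (0.91) and *Ltbp2* to *Ncor1* (0.83).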

How the data were processed

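The data are 2 control libraries and 1 mutant library of E14.5 soft palate cells, grouped by the submitters' labels. The authors deposited raw UMI counts per gene and barcode, 1 matrix a library, with no normalization. The file headers name Cell Ranger 4.0.0 and the submitters' processing notes Cell Ranger 3.1.0 and mm10. Of the 32285 genes, 32235 were matched to GENCODE vM21 by identifier. A barcode was kept from 500 detected genes upward if mitochondrial UMIs did not exceed 10%. Barcodes with markers of several types were left out in place of a doublet caller, except for combinations of mesenchyme, cartilage and mural markers. The members, marker lists and pathway lists were chosen with earlier results of these data known, and the rule that turns marker counts into gates was set after those counts had been seen.

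UMIs were summed per type and library in Python 3.11.15 (numpy 2.4.6, scipy 1.17.1, pandas 2.3.3, figures with matplotlib 3.10.9). Sums were tested in R 4.3.3 with edgeR 4.0.16 (quasi-likelihood, TMM factors, filterByExpr, library as a term, limma 3.58.1), with DESeq2 1.42.0 as an alternative. A subset needed 2 markers. For mutant ratios, 3 UMIs stood in for a count of 0. In simulated counts of the endothelial comparison, 158 of 200 genes changed by 1.5 log2 were recovered and 7 of the unchanged genes were called, among 10226 genes. The simulated types differed only in the 200 changed genes, which were drawn from genes at higher levels. All genes had the same dispersion, and there was no library effect. These counts therefore do not give the error rates of the real comparison. All 7 members are named, and from the other lists up to 4 genes past the threshold with the largest differences. The genes most like a member were the 3 with the highest correlation, of which those for binding proteins are given in part.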

Additional observations from a re-analysis of the deposited data

How the results depend on the processing

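Of the differences of single members between types or subsets, recomputed under 10 alternatives, 592 kept their direction and their side of the threshold, 58 lost the call, 23 gained one and 29, of 18 differences, changed sign. None of these 18 was called before or after the change. UMI totals without scaling factors, an alternative chosen after seeing the data, moved the median of all genes to 0.23 in mesenchyme, 0.22 in epithelium, 0.07 in endothelium, -0.32 in myeloid and -0.34 in myogenic cells, so changes there are relative to these shifts. It moved the shares of all genes called higher and lower from 27.9% and 23.9% to 39.9% and 14.6% in mesenchyme, from 20.3% and 15.6% to 32.0% and 8.55% in epithelium, from 17.9% and 14.3% to 21.3% and 11.2% in endothelium, from 24.0% and 21.1% to 18.0% and 32.2% in myeloid cells and from 21.2% and 18.1% to 13.1% and 31% in myogenic cells. In the subsets it moved them from 7.06% and 6.39% to 16.3% and 2.43% (perimysial), from 6.53% and 4.06% to 4.41% and 5.14% (osteogenic), from 2.66% and 2.52% to 5.28% and 1.64% (midline), from 3.76% and 4.79% to 8.63% and 1.52% (tendon) and from 11.1% and 10.4% to 18.5% and 5.23% (dividing). Without scaling, 5 members instead of 3 were called in epithelium and 0 instead of 1 in dividing cells (2 at an unadjusted p under 0.05).

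DESeq2 called 1 member instead of 4 in perimysial cells, 2 instead of 4 in osteogenic cells, 0 instead of 1 in midline and in dividing cells, 0 instead of 4 in tendon-marked cells and 8 instead of 13 neighbouring pairs of types. Its counts of all genes were also lower, at 459 against 1699 (perimysial), 525 against 1362 (osteogenic), 126 against 638 (midline), 88 against 1081 (tendon), 895 against 2678 (dividing) and 367 against 998 (*Krt6a*). At an unadjusted p under 0.05 DESeq2 had 1 member in midline, 1 in dividing and 3 in tendon-marked cells. Leaving out 1 library at a time gave 2 to 4 members called in epithelium, 3 to 5 in endothelium (3 without the mutant library), 4 to 6 in myeloid, 2 to 3 in myogenic and 5 in mesenchymal cells. It gave 3 to 5 in perimysial, 2 to 3 in osteogenic, 0 to 2 in midline, 0 to 5 in tendon-marked and 0 to 2 in dividing cells, 3 to 5 for *Krt6a*, and 9 to 13 neighbouring pairs. The counts of 0 were at unadjusted p under 0.05: 0 in midline and 2 in tendon-marked cells without the mutant library, and 3 in tendon-marked and 0 in dividing cells without control 2. Over these fits, all genes called ranged from 810 to 1741 (perimysial), 766 to 1051 (osteogenic), 273 to 887 (midline), 32 to 2286 (tendon), 899 to 2796 (dividing), 336 to 1485 (*Krt6a*) and 2192 to 3349 (endothelium, against 3491). With 1 marker more required for a gate, 0 members were called in midline (1 at an unadjusted p under 0.05) and 2 in tendon-marked cells (635 genes), and without the 5% of barcodes with the most UMIs 2 in dividing cells (621 genes in tendon-marked and 1124 in perimysial cells). Without the filter on low counts 0 were called in dividing cells, with 2 at an unadjusted p under 0.05.

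The sign changes came in the following log2 differences, given as the range over fits without 1 library. In epithelium *Tgfb2* (0.30) ranged from -0.16 to 0.53, and in myogenic cells *Ltbp1* (0.19) from -0.074 to 0.48 and *Ltbp4* (-0.09) from -0.26 to 0.043. Perimysial *Tgfb1* (-0.54) ranged from -0.84 to 0.015, osteogenic *Ltbp3* (-0.18) from -0.49 to 0.024 and *Ltbp4* (0.21) from -0.12 to 0.37. In midline cells *Tgfb2* (0.12) ranged from -0.018 to 0.35, *Tgfb3* (-0.08) from -0.17 to 0.00011, *Ltbp2* (0.17) from -0.053 to 0.43 and *Ltbp4* (0.03) from -0.013 to 0.058. In tendon-marked cells *Tgfb1* (-0.06) ranged from -0.34 to 0.71, *Tgfb3* (0.33) from -0.27 to 0.45 and *Ltbp2* (0.19) from -0.20 to 0.34. In dividing cells *Tgfb1* (-0.25) ranged from -0.43 to 0.030, *Ltbp2* (-0.23) from -0.46 to 0.15 and *Ltbp4* (0.08) from -0.088 to 0.17, and for *Krt6a* *Ltbp4* (0.05) from -0.29 to 0.22. Without scaling, myogenic *Ltbp1* was -0.10 and tendon *Tgfb1* 0.073. With 1 marker more, midline *Ltbp4* was -0.068 and tendon *Tgfb1* 0.024. Without the 5% of barcodes with the most UMIs, *Ltbp1* was -0.15 in myogenic cells, *Ltbp4* -0.013 in midline, -5.0e-05 in dividing and -0.22 in *Krt6a*-positive cells, and dividing *Ltbp3* (0.11) was -0.0017. In DESeq2 *Ltbp4* was -0.015 for *Krt6a*.

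Of the recomputed mutant results, 326 were labelled unmoved and 53 moved. A ratio was judged by 1 SD of the 2 controls, and a count of members past the fold, which these numbers include, by its relative change. Leaving out 1 control always moves a ratio by less than that SD, so those fits could not show a move. No ratio past the fold changed sign, which leaving out 1 control could not bring about either. With TMM factors within the type, 3 members instead of 1 were past the fold in mesenchyme, 2 instead of 1 in endothelium, 4 instead of 2 in perimysial cells and 2 instead of 1 in *Krt6a*-positive epithelium. Without the 5% of barcodes with the most UMIs they were 1 instead of 0 in myeloid cells, 1 instead of 2 in perimysial and 1 instead of 3 in osteogenic cells, and with 1 marker more 0 instead of 1 in endothelium. The cause of these changes was not tested. The gate rule moved the mesenchymal share of *Tgfb2* UMIs from 44.4%, 46.9% and 52.8% to 33.5%, 31.7% and 43.5%, and that of *Tgfb3* from 39.3%, 35.5% and 44.0% to 32.9%, 22.8% and 36.1%. No paired analysis was possible because there is a single mutant library and its label carries no replicate number, while types were compared with library as a term. Depth limits *Ltbp2* and the endothelium of control 1, which had 20 cells.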
